A study of Mus musculus with 6 samples.

Results

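The genes described here encode the transforming growth factor beta (TGF-beta) family and its signalling proteins: the TGF-beta, activin and bone morphogenetic protein (BMP) ligands, their receptors, the SMAD proteins, and the ubiquitin ligases and nuclear corepressors that restrain them. They were taken by a rule on gene symbols, which was set with earlier results of these data known. The rule took Smad or Bmp followed by a number, Tgfb1 to Tgfb3, Tgfbr1 to Tgfbr3, Bmpr1a, Bmpr1b, Bmpr2, every symbol that starts with Acvr or Inhb, and Smurf1, Smurf2, Ski, Skil and Tgif1. The rule gave 42 genes out of 18193 with a probe set of their own on the array. Bmp8a and Bmp8b were counted as BMP ligands, and Bmp2k, a kinase induced by BMP2, was not. Each gene was represented by its brightest probe set, the set of short probes that reports a transcript.

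The samples were bone marrow macrophages from knockin (KI) mice and from wild-type (WT) mice, all of strain C57BL/6, with 3 arrays in each group. All 6 cultures had received M-CSF at 44 ng/ml, which keeps macrophage precursors alive, and RANKL at 100 ng/ml, which drives them towards osteoclasts, for 24 hours. The series title names the IVVY motif of RANK, the receptor of RANKL, and the question put to the arrays is which transcripts the motif governs. The labels do not give the altered residues, the age of the mice, or whether the 3 arrays of a group came from separate animals, so that the p-values measure the spread between these samples, which may be technical.

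TGF-beta family ligands are secreted as dimers, and TGF-beta itself stays latent until it is released from its propeptide. An active ligand brings type II and type I receptor kinases together, and the type I kinase phosphorylates a receptor-regulated SMAD, which binds SMAD4 and enters the nucleus. SMAD2 and SMAD3 serve TGF-beta and activin, while SMAD1, SMAD5 and SMAD9 serve BMPs. Bone matrix stores TGF-beta that resorbing osteoclasts set free, and both osteoclast precursors and bone-forming cells respond to it.

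The cultures carried macrophage transcripts in both groups. Of 8 macrophage markers 6 were higher in KI cells and 0 lower, and of 10 osteoclast markers 0 were higher and 7 lower. The 6 were Csf1r, Adgre1, Itgam, Cd68, Fcgr1 and Mertk, and the 7 were Acp5, Ctsk, Nfatc1, Dcstamp, Ocstamp, Atp6v0d2 and Mmp9. The summed intensity of the osteoclast markers was 32701 to 36537 on the KI arrays and 70544 to 81134 on the WT arrays, and Calcr, the calcitonin receptor, averaged 19.6 in KI and 16.5 in WT cells, close to the floor of 16 set on the intensities. Of the markers of other blood cells, S100a8 (1 of 8 neutrophil markers, 0.84) and Pf4 (1 of 6 erythroid and megakaryocyte markers, 1.72) were higher, Kit (1 of 6 mast cell markers, -0.50) was lower, and 0 of 5 B cell and 0 of 4 T and NK cell markers passed. The 8 neutrophil markers had a median log2 difference of 0.83, and for 5 of them (S100a8, S100a9, Ltf, Camp and Ngp) every KI array lay above every WT array. Their summed intensity was 22195 to 43747 on the KI arrays and 15888 to 19911 on the WT arrays, and that of the erythroid and megakaryocyte markers, mostly Pf4, was 7644 to 9274 on the KI arrays and 2583 to 3482 on the WT arrays. In these bulk samples, fewer cells of a type and less RNA per cell cannot be told apart, and the part of these shifts in the values below was not tested. Over all genes, WT 1 and KI 1 lay farthest from the other group along the first principal component, with scores of -40.4 for KI 1 (KI 2 -24.1, KI 3 -30.0) and 49.4 for WT 1 (WT 2 22.8, WT 3 22.2). Over the 42 genes alone, the first component held 63.5% of the variance, with scores of -1.90, -1.33 and -1.73 on the KI arrays and 1.76, 1.38 and 1.83 on the WT arrays.

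Some of the receptors, SMADs, ubiquitin ligases and corepressors differed between the genotypes, and of the 16 ligand genes 0 passed the test; whether ligands differed less than the other genes was not tested. Of the 42 genes, 10 were higher and 4 were lower in KI cells, and 28 did not pass. Among all 18193 genes 26.8% passed, 11.9% higher and 14.9% lower, so that the 14 calls are to be read against a background in which a large part of the genome differed. The higher genes were Tgfbr1, Tgfbr2, Bmpr2, Acvr1b, Acvrl1, Smad1, Smad2, Smad3, Ski and Tgif1. The lower genes were Acvr1, Acvr2a, Acvr2b and Smurf1. At least 2-fold differences were found for Tgfbr2, which was higher, and for Acvr2a and Smurf1, which were lower; among all genes 2.68% were higher and 2.59% lower by this criterion. The median log2 difference of the 42 genes was 0.09, against -0.00129 for all genes. The groups did not overlap for 18 of the 42 genes, 13 with every KI array above every WT array and 5 with every KI array below, against 45.5% of all genes. Of the 42 genes, 31 had a mean level above the median of all probe sets, and all 14 calls were among them; 40.9% of all genes at such levels passed.

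**Figure D1:**
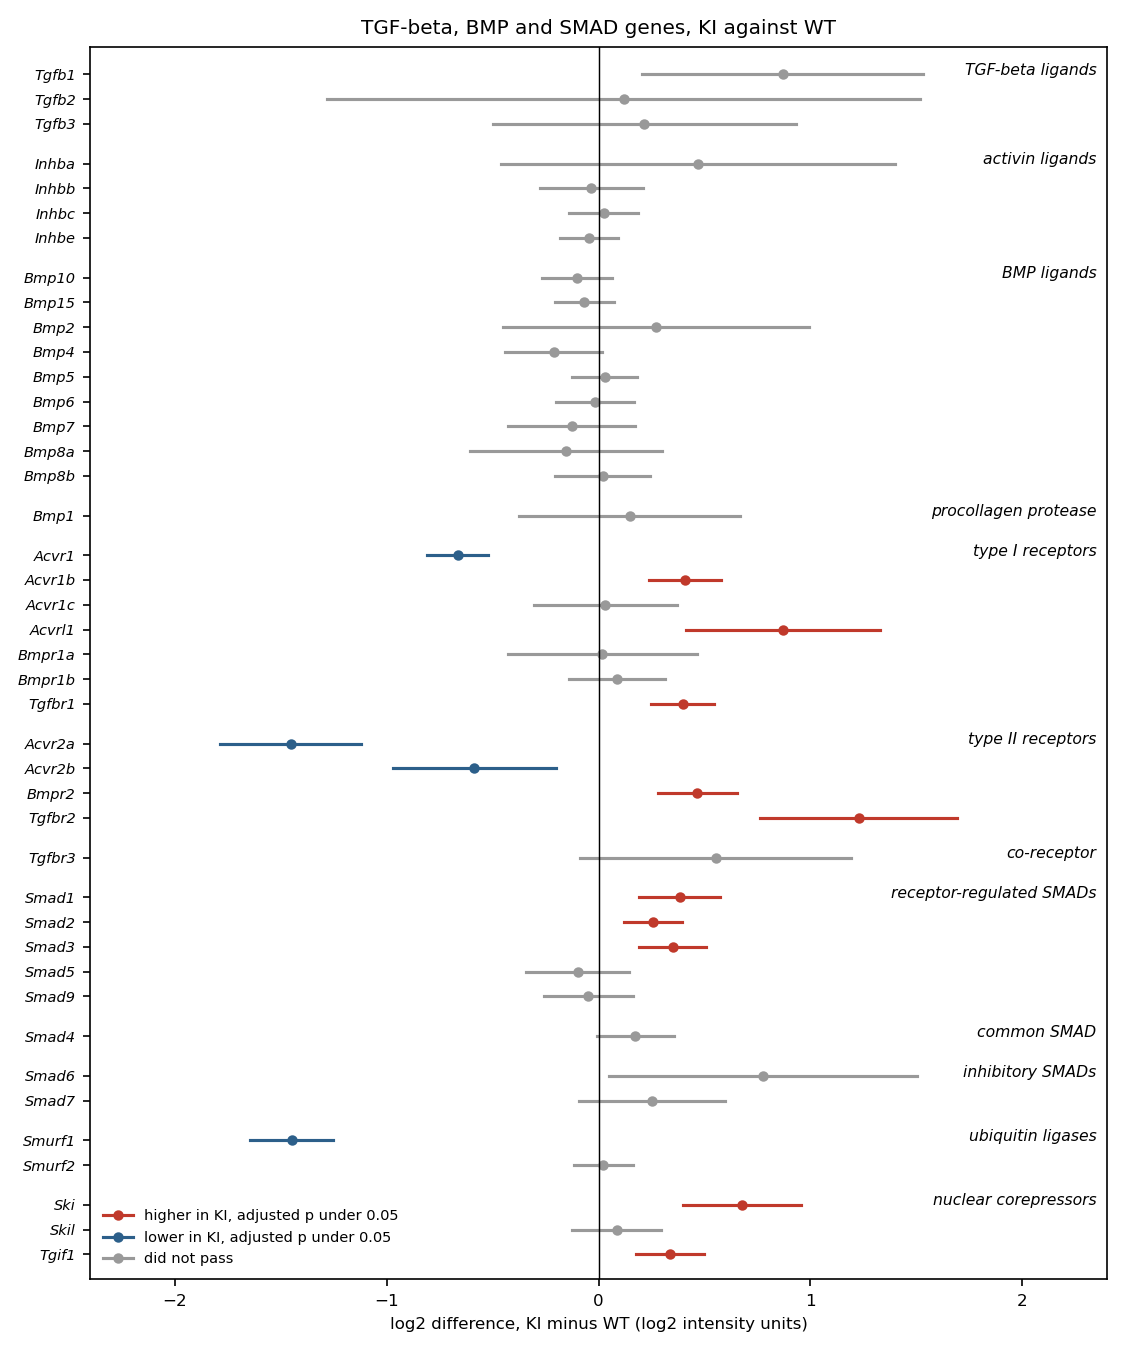
Log2 difference between KI and WT (x axis, log2 intensity units, positive where KI is higher) for each of the 42 genes (y axis), grouped by role, with points for the estimate and lines for its 95% interval. The receptors spread to both sides of 0, from -1.45 for Acvr2a to 1.23 for Tgfbr2, and no ligand was called.

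The direction of the smaller rises depends on how arrays are scaled to each other. With each array scaled to its hybridisation spike-ins, control transcripts added in fixed amounts, the median difference of all genes moved to -0.20 and 4 of the 42 genes were higher and 6 lower. With the older probe sets for these spike-ins (older spike-in scaling) that median moved to -0.515, and 1 gene was higher and 14 were lower. Tgfbr2, at 1.02 and 0.70, was higher with both kinds of spike-in, and Acvr1, Acvr2a, Acvr2b and Smurf1 were lower with both. Each scaling lowered the differences of these genes by nearly the same amount, which makes falls larger and rises smaller. The directions given below hold for the intensities as deposited.

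**Figure D2:**
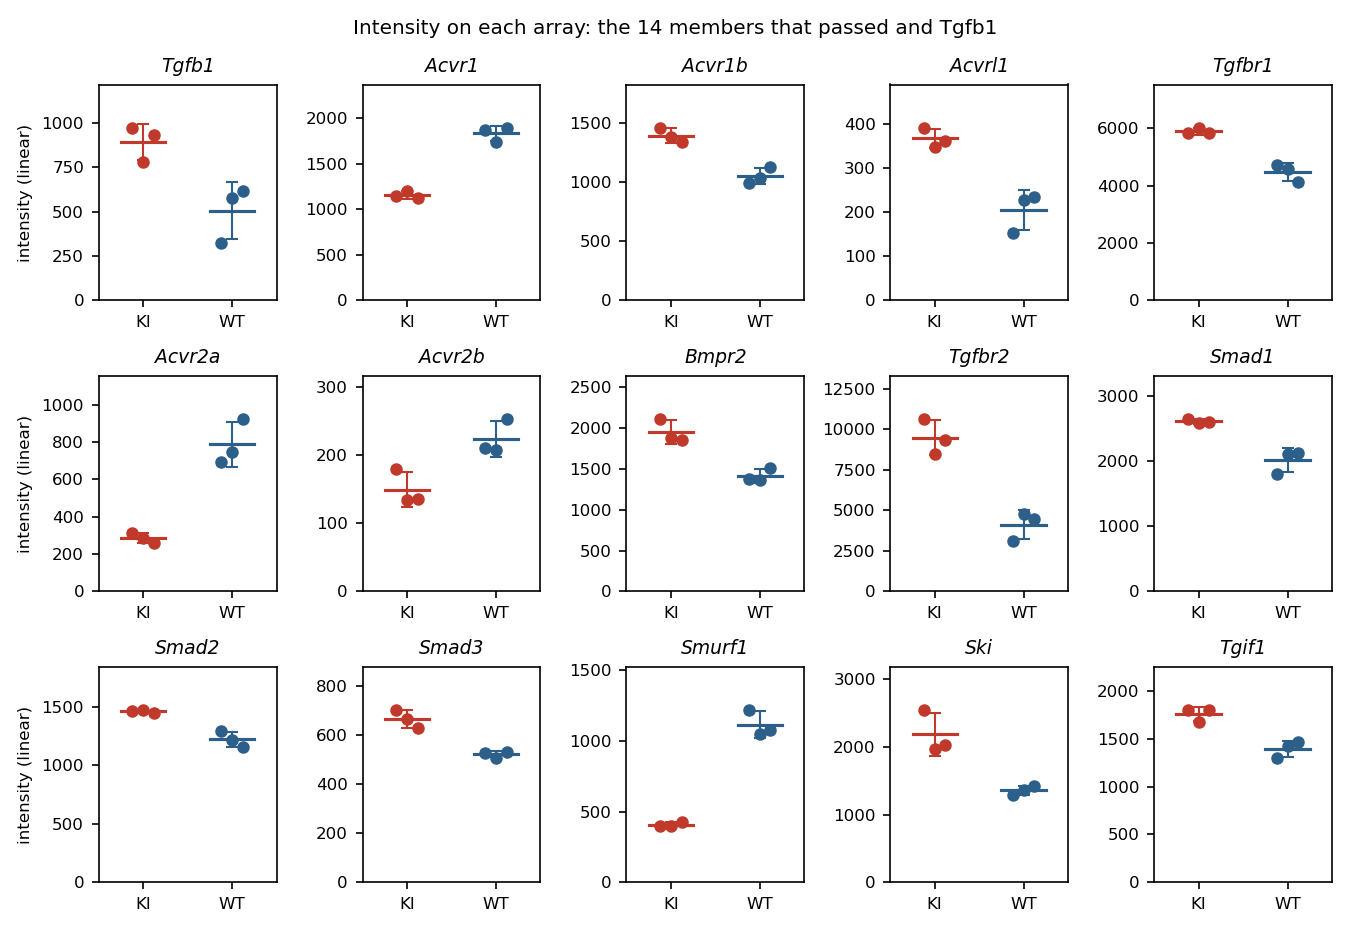
Intensity on a linear scale (y axis) on each of the 3 KI arrays (left, red) and 3 WT arrays (right, blue) for Tgfb1 and the 14 genes that passed the test, with the mean as a horizontal line and the SD as a bar. KI and WT arrays do not overlap in any panel, and Smurf1, Acvr2a and Tgfbr2 differ by at least 2-fold.

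The promoters of Tgfbr2, Acvr2a and Smurf1 are shown because these genes had at least 2-fold differences, from 250 bases before to 50 bases after the annotated start, from RefSeq (GRCm38.p6). Capitals mark the SMAD-binding core CAGAC or its reverse complement.
Tgfbr2, chr9:116175314-116175613, minus strand: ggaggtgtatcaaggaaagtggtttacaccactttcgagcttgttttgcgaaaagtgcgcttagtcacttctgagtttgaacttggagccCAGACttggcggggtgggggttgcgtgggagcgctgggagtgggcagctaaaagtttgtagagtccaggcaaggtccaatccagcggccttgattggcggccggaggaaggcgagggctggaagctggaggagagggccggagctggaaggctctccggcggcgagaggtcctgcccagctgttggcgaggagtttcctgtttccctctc
Acvr2a, chr2:48813859-48814158, plus strand: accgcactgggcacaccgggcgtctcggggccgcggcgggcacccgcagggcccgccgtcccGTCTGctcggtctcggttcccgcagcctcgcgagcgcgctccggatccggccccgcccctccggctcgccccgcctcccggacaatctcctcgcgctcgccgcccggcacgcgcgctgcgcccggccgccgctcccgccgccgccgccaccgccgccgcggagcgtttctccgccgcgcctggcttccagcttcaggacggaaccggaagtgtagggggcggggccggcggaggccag
Smurf1, chr5:144965781-144966080, minus strand: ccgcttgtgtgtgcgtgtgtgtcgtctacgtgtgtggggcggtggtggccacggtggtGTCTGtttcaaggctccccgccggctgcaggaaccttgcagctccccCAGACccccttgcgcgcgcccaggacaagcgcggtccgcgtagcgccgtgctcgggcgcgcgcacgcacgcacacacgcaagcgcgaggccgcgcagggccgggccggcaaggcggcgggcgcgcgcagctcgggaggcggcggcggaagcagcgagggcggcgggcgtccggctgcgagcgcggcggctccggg
The Tgfbr2 window holds 1 SMAD core, the Acvr2a window 1 and the Smurf1 window 2, and 49.6% of 32851 RefSeq promoter windows hold at least 1. On either strand the Tgfbr2 window also holds 3 matches to the NFAT core GGAAA, present in 61.3% of windows, and 1 to the PU.1 core GAGGAA, present in 28.3%. The other 2 windows hold 0 of both, and none of the 3 holds the AP-1 site TGANTCA, which 7.81% of windows hold. The windows of Acvr2a and Smurf1 are rich in G and C, at 80.3% and 76.3%, against 59.0% for Tgfbr2 and a median of 52.7% over all windows. A match of such short letters is a description of the sequence. A promoter window was found for 32 of the 42 genes.

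Type II receptors are the constitutively active kinases that start the signal. The 4 taken by the rule on symbols all passed the test, 2 in each direction. Amhr2, a type II receptor outside the rule, did not pass (-0.08, adjusted p = 0.51). All 4 lay above the median level of all probe sets, and 40.9% of all genes at such levels passed. None of the 4 calls held in every alternative setting, and that for Acvr2b was lost in 10 of 22. Tgfbr2, the type II receptor of TGF-beta, had intensities of 10652, 8503 and 9308 on the KI arrays, against 3086, 4784 and 4449 on the WT arrays. Every KI array was brighter than every WT array, and WT 1 was the dimmest. The log2 difference was 1.23, a 2.34-fold rise (SE 0.19, adjusted p = 0.0094). A dimmer probe set of Tgfbr2 also rose, by 0.51 (adjusted p = 0.024 over all probe sets), and the third lay below the floor. With the mean of its probe sets the rise was 0.58 (adjusted p = 0.0098). The sample descriptions carry a number for each array whose meaning they do not state. With this number as a covariate the call for Tgfbr2 ended (1.34, adjusted p = 0.054).

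Acvr2a, a type II receptor that binds activins and several BMPs, moved the other way. It had intensities of 313, 287 and 259 on the KI arrays, against 694, 745 and 925 on the WT arrays. The brightest KI array was dimmer than any WT array. The log2 difference was -1.45, a 2.74-fold lower level in KI cells (SE 0.13, adjusted p = 0.0030), and its other probe set gave -1.51 (adjusted p = 0.0022 over all probe sets). Bmpr2, the type II receptor of BMPs, had intensities of 2115, 1882 and 1859 on the KI arrays, against 1374, 1358 and 1509 on the WT arrays. The rise was 0.46 log2 units (SE 0.07, adjusted p = 0.011), against 0.26 with spike-in scaling and -0.07 with the older spike-ins. On the second brightest Bmpr2 probe set the difference was 0.28 (adjusted p = 0.29). That probe set was far dimmer, with means of 139 in KI and 116 in WT cells. With the mean of the Bmpr2 probe sets the difference was 0.38 (adjusted p = 0.054). Acvr2b, the near relative of Acvr2a, had intensities of 180, 133 and 135 on the KI arrays, against 210, 207 and 253 on the WT arrays. It fell by 0.59 (SE 0.15, adjusted p = 0.041), and this call ended without KI 2 (-0.51, adjusted p = 0.11), KI 3 (-0.52, 0.13), WT 1 (-0.63, 0.073), WT 2 (-0.64, 0.079) or WT 3 (-0.49, 0.11). It also ended with a floor of 64 (adjusted p = 0.064), with the covariate (-0.37, 0.23), with the mean of its probe sets (-0.25, 0.052) and on its second brightest probe set (-0.08, 0.54).

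The ratio between a pair of genes on the same array does not change with the scaling of that array, and 4 such ratios are given as a description, with no test. Each sets a higher or hardly changed gene over a lower one and was chosen after the values were seen, so that the direction of the ratios follows from the choice. The log2 ratio of Tgfbr2 to Acvr2a was 5.09, 4.89 and 5.17 on the KI arrays, against 2.15, 2.68 and 2.27 on the WT arrays. The groups stood 2.68 log2 units apart, a 6.41-fold change of the ratio. For Bmpr2 over Acvr2b the change was 1.05, for Acvr1b over Acvr1 1.07 and for Smurf2 over Smurf1 1.47.

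Of the 7 type I receptors, the kinases that phosphorylate SMADs, 3 were higher, 1 was lower and 3 did not pass. Acvr1, a type I receptor for BMPs, had intensities of 1140, 1204 and 1119 on the KI arrays, against 1866, 1733 and 1893 on the WT arrays. It fell by 0.66 (SE 0.06, adjusted p = 0.0027), and its next probe set fell by 0.62 (adjusted p = 0.016 over all probe sets). The third, dimmer probe set differed by -0.01 (adjusted p = 0.99), and the mean of the 3 by -0.43 (adjusted p = 0.0048). Acvrl1, a type I receptor best known from endothelial cells, had intensities of 391, 348 and 361 on the KI arrays, against 152, 227 and 234 on the WT arrays. It rose by 0.87 (SE 0.18, adjusted p = 0.023). That call ended without KI 1 (0.82, adjusted p = 0.076), KI 2 (0.90, 0.059) or KI 3 (0.88, 0.077), on the other probe set (0.58, 0.11), with the covariate (0.90, 0.11) and under older spike-in scaling (0.34, 0.27). Of 6 endothelial markers, 1 was higher (Emcn, 0.34) and 1 lower (Kdr, -0.57). Their summed intensity, mostly Kdr, ranged from 587 to 591 on the KI arrays and from 667 to 857 on the WT arrays. Kdr alone had 343 to 382 on the KI arrays and 470 to 631 on the WT arrays. Pecam1, Cdh5, Tek and Vwf did not pass, with differences of 0.10, 0.11, 0.02 and -0.07.

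Tgfbr1, the type I receptor that pairs with Tgfbr2, had intensities of 5817, 6014 and 5822 on the KI arrays, against 4707, 4574 and 4134 on the WT arrays. It rose by 0.40 (SE 0.06, adjusted p = 0.0091). Acvr1b, the main type I receptor of activin, had intensities of 1460, 1381 and 1341 on the KI arrays, against 997, 1032 and 1129 on the WT arrays. It rose by 0.41 (SE 0.07, adjusted p = 0.012). For both genes the arrays of the groups stood apart, but the call ended after spike-in scaling (0.19 for Tgfbr1, adjusted p = 0.17, and 0.20 for Acvr1b, adjusted p = 0.080), and under older spike-in scaling the differences were -0.13 and -0.12. It also ended with the covariate (0.41, 0.061, and 0.45, 0.060), with the mean of the probe sets (0.22, 0.063, and 0.24, 0.061) and on their second brightest probe sets (0.15, 0.48, and 0.07, 0.78), which were far dimmer. Bmpr1a, Bmpr1b and Acvr1c, type I receptors of BMPs and of activin-like ligands, differed by 0.02 (95% interval -0.43 to 0.46), 0.09 (-0.14 to 0.31) and 0.03 (-0.31 to 0.37), and Bmpr1b and Acvr1c had no array above 40.5. The co-receptor Tgfbr3, betaglycan, which presents TGF-beta to the receptors, had intensities of 213.6, 128.8 and 169.5 on the KI arrays, against 139.6, 122.8 and 86.4 on the WT arrays. The groups overlapped, and the difference of 0.55 did not pass (SE 0.26, adjusted p = 0.18).

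Among the SMADs, 3 of the 5 receptor-regulated genes were higher, by 1.20-fold to 1.30-fold. Smad1, which carries BMP signals, had intensities of 2654, 2587 and 2602 on the KI arrays, against 1799, 2118 and 2120 on the WT arrays. It rose by 0.38 (SE 0.08, adjusted p = 0.019), and its second brightest probe set by 0.50 (adjusted p = 0.021 over all probe sets). Smad3 had intensities of 702, 664 and 628 on the KI arrays, against 527, 508 and 529 on the WT arrays. It rose by 0.35 (SE 0.06, adjusted p = 0.015). Smad2 had intensities of 1463, 1475 and 1442 on the KI arrays, against 1290, 1218 and 1159 on the WT arrays. It rose by 0.26 (SE 0.06, adjusted p = 0.023). Under spike-in scaling none of these 3 calls held, with differences of 0.18, 0.14 and 0.05 for Smad1, Smad3 and Smad2, and older spike-in scaling turned them to -0.15, -0.18 and -0.27.

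Each of these SMAD calls was also lost when certain single arrays were left out. That for Smad1 ended without KI 1 (0.37, adjusted p = 0.065), KI 2 (0.39, 0.058) or KI 3 (0.39, 0.072), and that for Smad3 without KI 2 (0.35, 0.052) or WT 2 (0.33, 0.051). That for Smad2 ended without KI 1 (0.26, 0.070), KI 2 (0.25, 0.075), KI 3 (0.27, 0.081), WT 2 (0.26, 0.069) or WT 3 (0.22, 0.060). Smad2 was also not called on its other probe set (0.07, 0.70) or with the mean of its probe sets (0.16, 0.16), nor Smad3 on its second brightest probe set (0.14, 0.50) or with the mean (0.22, 0.054). The second Smad3 probe set was far dimmer than the brightest. Its means were 64.9 in KI and 59.0 in WT cells, against 665 and 521 for the brightest. With the covariate, Smad1 (0.38, 0.10) and Smad2 (0.28, 0.10) did not pass.

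Smad5, the other widely expressed BMP SMAD, did not pass by its brightest probe set, with intensities of 530, 491 and 513 on the KI arrays, against 625, 507 and 519 on the WT arrays (-0.10, 95% interval -0.34 to 0.14). Its dimmest probe set, with 68.5, 91.4 and 99.4 on the KI arrays, against 225, 151 and 173 on the WT arrays, fell by 1.08 (adjusted p = 0.027 over all probe sets). Smad9 had no array above 53.4. Smad4, the partner shared by all pathways, had intensities of 4229, 3697 and 4066 on the KI arrays, against 3302, 3665 and 3659 on the WT arrays. The groups did not overlap, but the difference of 0.17 did not pass (SE 0.07, adjusted p = 0.14). A second Smad4 probe set rose by 0.49 (adjusted p = 0.0069 over all probe sets), and with the mean of its 3 probe sets the gene rose by 0.31 (adjusted p = 0.022).

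Smad6 and Smad7 are inhibitory SMADs, induced by the pathway and acting back on its receptors. Smad6 had intensities of 94.5, 184 and 110 on the KI arrays, against 92.1, 66.0 and 62.8 on the WT arrays. The lowest KI array lay just above the highest WT array, and the difference of 0.77 did not pass (SE 0.29, adjusted p = 0.11; 0.030 with array weights). Smad7 had intensities of 323, 359 and 386 on the KI arrays, against 314, 337 and 250 on the WT arrays. The groups overlapped, and the difference of 0.25 did not pass (SE 0.14, adjusted p = 0.25).

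Smurf1 and Smurf2 are ubiquitin ligases that mark SMADs and receptors for degradation, and they differed in their behaviour here. Smurf1 had intensities of 401, 397 and 428 on the KI arrays, against 1223, 1048 and 1082 on the WT arrays. The KI arrays were tightly grouped and all far below WT. The log2 difference was -1.45, a 2.73-fold lower level in KI cells (SE 0.08, adjusted p = 0.0010), and the other probe set gave -1.63 (adjusted p = 0.0058 over all probe sets). Smurf1 stayed past the threshold in all 22 alternative settings, with differences from -1.98 to -1.35. Smurf2 had intensities of 1373, 1245 and 1257 on the KI arrays, against 1267, 1255 and 1295 on the WT arrays. The groups overlapped, and the difference was 0.02, with a 95% interval from -0.12 to 0.16 (-0.51 under older spike-in scaling, adjusted p = 0.094).

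Ski, Skil and Tgif1 encode corepressors that hold SMAD target genes silent. Ski had intensities of 2544, 1972 and 2021 on the KI arrays, against 1285, 1364 and 1418 on the WT arrays. It rose by 0.68, or 1.60-fold (SE 0.11, adjusted p = 0.012), and its other probe set by 0.82 (adjusted p = 0.0049 over all probe sets). Under older spike-in scaling the difference was 0.15 (adjusted p = 0.62). Tgif1 had intensities of 1799, 1675 and 1801 on the KI arrays, against 1301, 1422 and 1460 on the WT arrays. The rise of 0.34 (SE 0.06, adjusted p = 0.017) no longer passed without KI 1 (0.32, adjusted p = 0.060) or KI 3 (0.32, 0.074), with the covariate (0.34, 0.092) and after spike-in scaling (0.13, 0.14), and the sign turned (-0.19) under older spike-in scaling. Skil, which TGF-beta both induces and removes, had intensities of 2780, 3313 and 3161 on the KI arrays, against 3102, 2802 and 2809 on the WT arrays. The groups overlapped, with a difference of 0.08 (95% interval -0.12 to 0.29); without WT 1 and KI 1 it was 0.21 (adjusted p = 0.035).

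Of the 16 ligand genes, 0 passed the test in either direction by limma, and 1, Tgfb1, had an unadjusted p under 0.05. Such p-values were common among all genes: Smad6, with an unadjusted limma p of 0.04, ranked only 6725 of 18193 by p. Tgfb1 encodes the main TGF-beta of bone and of macrophages. It had intensities of 973, 778 and 930 on the KI arrays, against 325, 577 and 616 on the WT arrays. Every KI array was brighter than every WT array, and WT 1 was the dimmest. The difference of 0.87 did not pass (SE 0.27, adjusted p = 0.064), and without WT 1 it was 0.58 and passed (adjusted p = 0.028). It also passed with the filter on low values (0.028), with robust eBayes (0.039), with array weights (0.68, 0.017), with log2 of the intensity plus 32 (0.82, 0.032) and with the mean of its probe sets (0.69, 0.010). Its second probe set rose by 0.51 (adjusted p = 0.036 over all probe sets).

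The other TGF-beta and activin ligands varied more between arrays of a group than between the groups. Tgfb2 had intensities of 85.5, 29.7 and 78.9 on the KI arrays, against 96.9, 47.2 and 34.3 on the WT arrays. Inhba, which encodes the subunit of activin A, had intensities of 284, 167 and 295 on the KI arrays, against 278, 152 and 125 on the WT arrays. KI 1, KI 3 and WT 1 were the 3 brightest arrays for both genes, across the genotypes. Tgfb3 had intensities of 70.2, 41.1 and 76.1 on the KI arrays, against 58.5, 59.7 and 40.0 on the WT arrays. The differences were 0.12 for Tgfb2 (95% interval -1.28 to 1.52), 0.47 for Inhba (SE 0.37) and 0.22 for Tgfb3 (-0.50 to 0.93).

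The same 3 arrays carried most stromal transcripts. The summed intensity of 13 markers of stromal cells and osteoblasts was 13549, 3931 and 11826 on the KI arrays, against 11542, 7089 and 3629 on the WT arrays, and Col1a2, a chain of type I collagen, had 6867, 1726 and 5756 on the KI arrays, against 5768, 3602 and 1638 on the WT arrays. Of these markers 0 were higher and 1 was lower in KI cells (Dcn), and 12 did not pass. KI 1, KI 3 and WT 1 were the 3 brightest arrays for 8 of these 13 markers, for 6 of the 42 genes (Tgfb2, Inhba, Bmp5, Bmp1, Bmpr1a and Tgfbr3) and for 3.0% of all genes. This grouping of arrays was noticed in the data, and the part of stromal cells in these values was not tested.

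**Figure D3:**
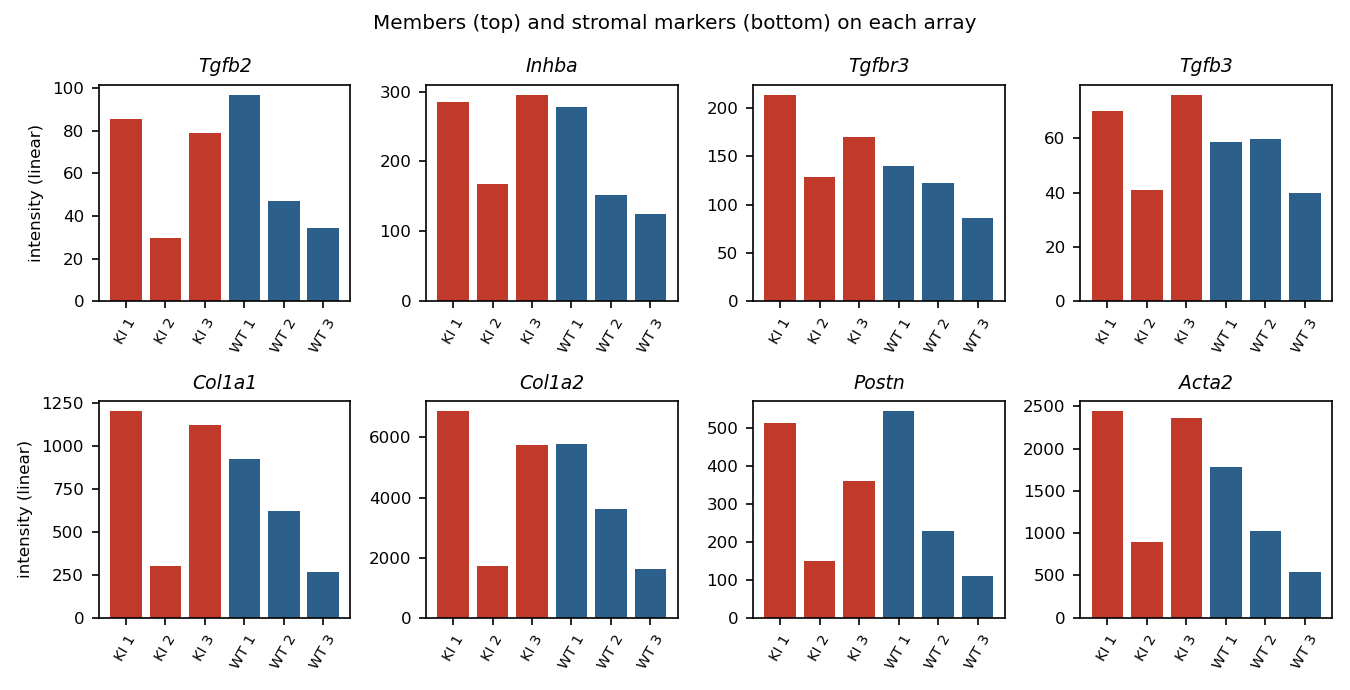
Intensity on a linear scale (y axis) on each array (x axis, KI red and WT blue) for Tgfb2, Inhba, Tgfbr3 and Tgfb3 in the top row and for 4 stromal markers in the bottom row. KI 2, WT 2 and WT 3 are low for Tgfb2, Inhba, Tgfbr3, Col1a1, Col1a2, Postn and Acta2; Tgfb3 keeps to this order except that WT 2 (59.7) lies just above WT 1 (58.5).

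BMP ligands, which induce bone and pattern many tissues, were dim. Bmp2 had intensities of 177, 92.4 and 98.1 on the KI arrays, against 86.6, 88.0 and 120 on the WT arrays. KI 1 alone stood above the rest, and the difference of 0.27 did not pass (SE 0.29). Bmp4 had intensities of 22.4, 21.9 and 27.4 on the KI arrays, against 27.8, 26.7 and 28.2 on the WT arrays, with a difference of -0.21 (adjusted p = 0.15) that was -0.32 and passed without KI 3 (adjusted p = 0.027), and that passed under spike-in scaling (-0.42, 0.028) and older spike-in scaling (-0.74, 0.0030). Bmp10, with 137, 142 and 145 on the KI arrays, against 146, 157 and 152 on the WT arrays, differed by -0.10 (adjusted p = 0.33), and passed under spike-in scaling (-0.31, 0.048). The remaining BMP ligands differed by -0.15 (Bmp8a) to 0.03 (Bmp5), and of the 9 BMP ligand genes 5 did not lie above the median level of all probe sets. Inhbb, Inhbc and Inhbe, other subunits of the activin and inhibin class, differed by -0.04, 0.02 and -0.04. Under older spike-in scaling 7 BMP ligands (Bmp4, Bmp5, Bmp6, Bmp7, Bmp8a, Bmp10 and Bmp15) and Inhbe passed as lower, along with Smad5 and Smad9. Bmp1, a protease that trims procollagen and not a ligand of the family, differed by 0.15 (SE 0.21).

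Only Acvr1, Acvr2a, Ski, Smad1, Smurf1 and Tgfbr2 had several called probe sets, and for each of them these had the same direction. The 42 genes had 95 probe sets, of which 15 were higher and 7 lower in a fit over all 45037 probe sets, where 18.7% passed. Of the 31 genes with several probe sets, 0 had calls in both directions, 3 (Acvr2a, Smurf1 and Ski) had all of theirs called the same way, and 16 had none called. For 7 of the called genes no other probe set was called the same way. Among them, Acvr2b had no probe set called in the fit over all probe sets (adjusted p = 0.057 for its brightest).

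**Figure D4:**
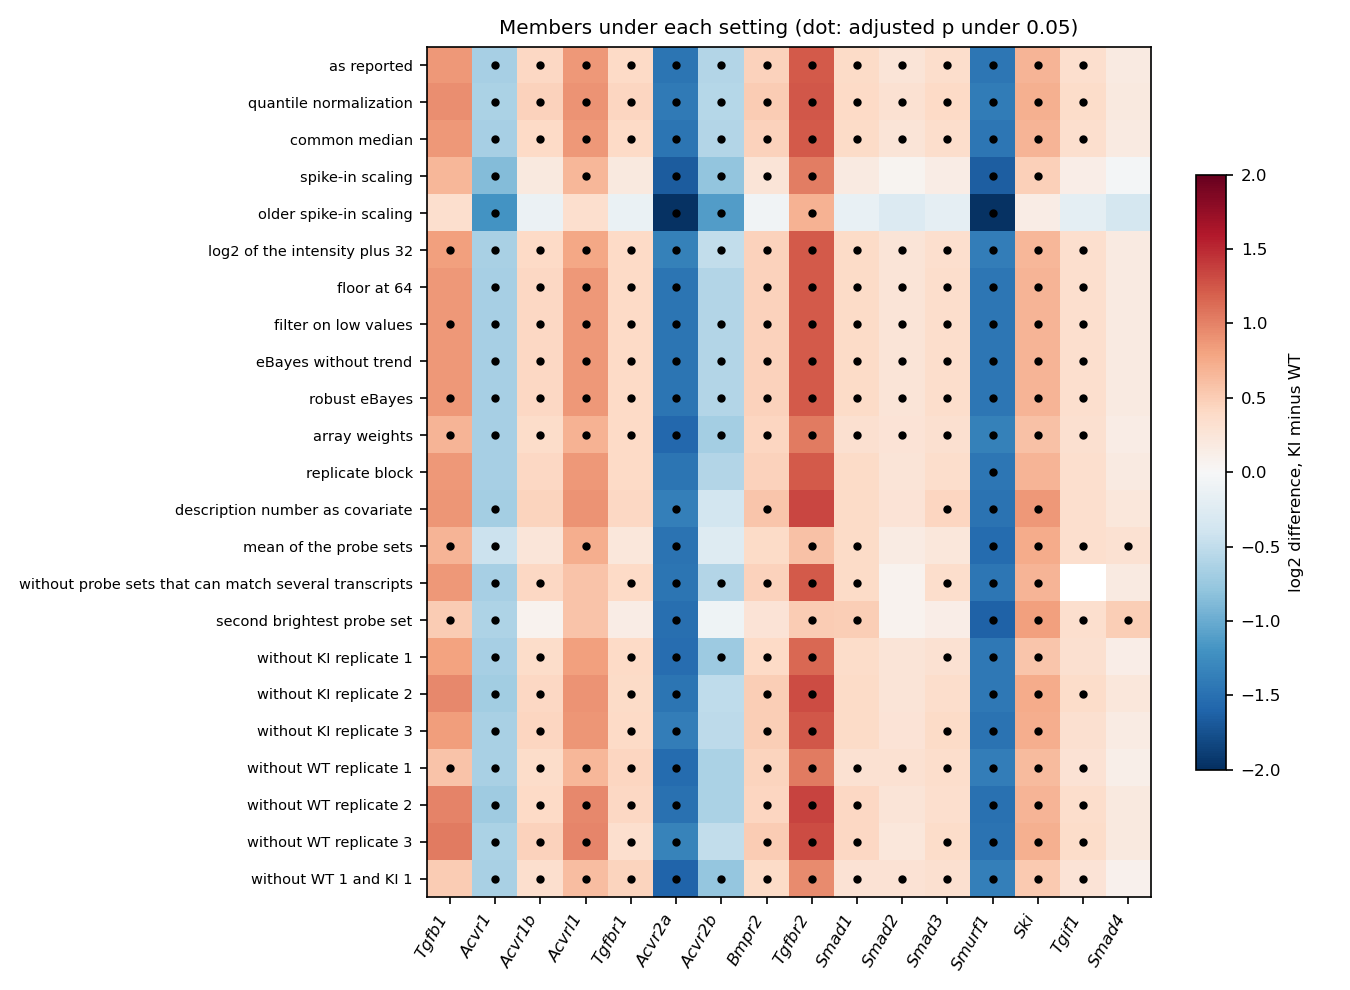
Log2 difference, KI minus WT (colour, red where KI is higher), for the 14 genes that passed, Tgfb1 and Smad4 (x axis) as reported and in the 22 alternative settings (y axis), with a dot where the adjusted p was under 0.05 and white where the gene had no probe set left. Smurf1 has a dot in every row, Acvr1 and Acvr2a in all but that of the replicate block, and the pale columns of Smad2, Smad3 and Tgif1 turn blue under older spike-in scaling.

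Other genes of the pathway, in 9 lists, changed in both directions. Of 108 such genes measured, 18 were higher, 15 were lower and 75 did not pass, with a median log2 difference of 0.07. Called were 30.6%, against 26.8% of all genes. Of the 82 with a mean level above the median of all probe sets 40.2% were called, against 40.9% of all genes at such levels. The counts of single lists below are to be read against these shares. The lists, too, were chosen with earlier results of these data known. The proteins that make latent TGF-beta available were split: of 12 genes 4 were higher and 2 lower. Nrros, which tethers latent TGF-beta on myeloid cells, had intensities of 8179, 7068 and 7262 on the KI arrays, against 2804, 4125 and 4317 on the WT arrays, and rose by 1.02 (adjusted p = 0.013; 0.051 without KI 1, 0.054 without KI 3, 0.072 with the covariate and 0.089 under older spike-in scaling). Furin, the protease that cuts the TGF-beta propeptide, rose by 0.61 (adjusted p = 0.0086; 0.054 with the covariate), which was 0.08 under older spike-in scaling. Ltbp3, a latent TGF-beta binding protein, rose by 0.74 (adjusted p = 0.022; 0.066 without KI 1, where the difference was 0.38, 0.066 without KI 3, 0.055 without WT 2, and 0.49 under older spike-in scaling). Mmp14, a membrane metalloproteinase that can release TGF-beta, fell by 1.15 (adjusted p = 0.0011). Itgav, an integrin chain that takes part in its activation, fell by 0.59 (adjusted p = 0.046). That call was lost in 13 of 22 settings, among them the leaving out of any array but WT 1 (adjusted p 0.057 to 0.13). Itgb6 and Itgb8, integrin chains on the same list, did not pass and lay near the floor of 16. Their means were 24.4 and 15.7 in KI cells, against 23.3 and 15.2 in WT cells.

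Adaptors moved in both directions, and the 3 genes that passed on the list of co-receptors and decoys were higher. The 8 genes of that list included Amhr2, a type II receptor, and Tmprss6, a protease, which did not pass. Dab2, an endocytic adaptor that binds TGF-beta receptors and SMADs, had intensities of 11896, 12948 and 12891 on the KI arrays, against 2375, 3978 and 3776 on the WT arrays. The dimmest KI array was far above the brightest WT array, and the rise of 1.93 (SE 0.21, adjusted p = 0.0042) passed in all 22 settings. Of 12 adaptors and kinases 2 were higher and 2 lower. Strap, which favours SMAD7 at the receptor, fell by 0.77 (adjusted p = 0.0066). Fkbp1a, which guards type I receptors, fell by 0.29 (adjusted p = 0.026; 0.055 to 0.088 without KI 1, KI 2, KI 3 or WT 2), and Xiap, an inhibitor of apoptosis, rose by 0.22 (adjusted p = 0.022), a call lost in 9 of 22 settings and turned in sign in 2, older spike-in scaling (-0.31) and the mean of its probe sets (-0.0521). Of 8 co-receptors and decoys 3 were higher and 0 lower: Tgfbrap1, a protein bound to TGF-beta receptors, rose by 0.93 (adjusted p = 0.0087; 0.053 with the covariate and 0.18 under older spike-in scaling), or by 0.58 with the mean of its probe sets, Bambi, a decoy receptor without a kinase, by 0.81 (adjusted p = 0.015; 0.051 without KI 2, 0.058 without KI 3, 0.099 with the covariate and 0.37 under older spike-in scaling), and Rgmb, a BMP co-receptor, by 0.42 (adjusted p = 0.017; 0.055 to 0.060 without any 1 KI array, 0.091 with the covariate and 0.20 under spike-in scaling, where the difference was 0.22, against -0.11 under older spike-in scaling).

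Of 13 extracellular antagonists 0 were higher and 2 lower. Dcn, the matrix protein decorin, which binds TGF-beta, fell by 1.44 (adjusted p = 0.0030) but by 0.82 with the mean of its probe sets (adjusted p = 0.0036), and its second brightest probe set gave -0.20 (adjusted p = 0.25). Twsg1, which modulates BMPs, fell by 0.31 (adjusted p = 0.047), a call lost when any 1 array was left out (adjusted p 0.064 to 0.13); its second brightest probe set gave -0.58 (adjusted p = 0.043). Of 10 other family ligands 0 passed by limma, and 3 (Nodal, Lefty1 and Lefty2) had an unadjusted p under 0.05, which was common among all genes. Among 12 genes of ubiquitin and phosphatase control, 2 were higher and 1 lower. Wwp1, a ubiquitin ligase, had intensities of 13294, 9874 and 10607 on the KI arrays, against 2342, 4397 and 5258 on the WT arrays. It rose by 1.56 (SE 0.32, adjusted p = 0.021). The adjusted p was 0.071 without KI 1, 0.052 without KI 2, 0.070 without KI 3 and 0.091 with the covariate. Nedd4l, another ubiquitin ligase, rose by 0.40 (adjusted p = 0.016). The adjusted p was 0.053 without KI 3, 0.052 without WT 2 and 0.10 with the covariate. The difference was 0.19 with spike-in scaling (adjusted p = 0.20) and -0.13 with the older spike-ins. Stub1, a ubiquitin ligase that works with chaperones, fell by 0.30 (adjusted p = 0.033), a call lost when any 1 array was left out (adjusted p 0.058 to 0.085). Of 11 nuclear partners 0 were higher and 2 lower. Zeb1, a transcriptional repressor that binds SMADs, had intensities of 282, 257 and 261 on the KI arrays, against 1638, 998 and 968 on the WT arrays, and fell by 2.13 (SE 0.22, adjusted p = 0.0038), or by 1.10 with the mean of its probe sets (adjusted p = 0.0076). Sin3a, a corepressor scaffold, fell by 0.36 (adjusted p = 0.0065; 0.057 with the covariate).

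**Figure D5:**
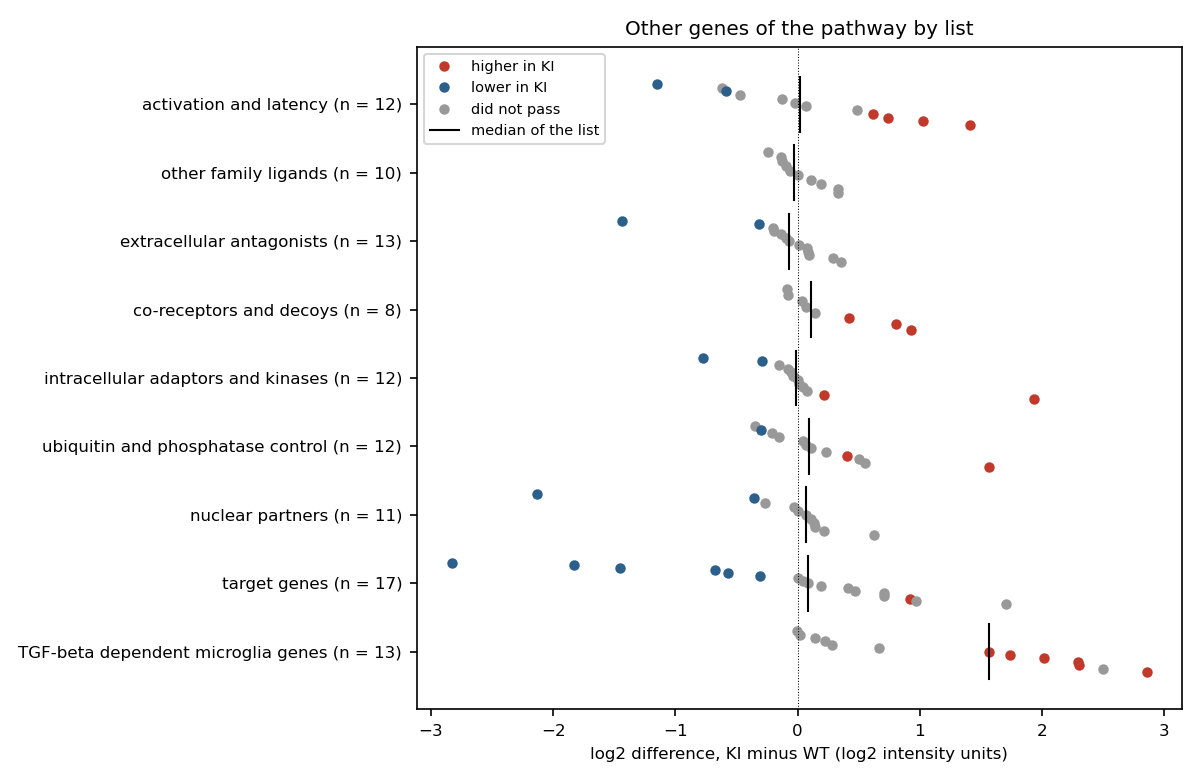
Log2 difference, KI minus WT (x axis, log2 intensity units), of 108 other pathway genes in 9 lists (y axis, with the number measured), coloured by the test, with the median of each list as a black line. The target genes spread from -2.83 to 1.70, and the microglia list has a median of 1.57 with no gene called lower.

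Genes known as targets of the pathway did not move one way. Of 17 target genes 1 was higher, 6 were lower and 10 did not pass. Called were 41.2%, against 26.8% of all genes. Of the 14 above the median level of all probe sets 50% were called, against 40.9% of all genes at such levels. Tgfbi, named for its induction by TGF-beta, had intensities of 16111, 15194 and 14984 on the KI arrays, against 6627, 9309 and 8860 on the WT arrays, and rose by 0.92 (SE 0.14, adjusted p = 0.0088; 0.059 with the covariate and 0.16 under older spike-in scaling). Cdkn2b, a cell-cycle inhibitor that TGF-beta induces in epithelial cells, had intensities of 167.6, 129.3 and 122.6 on the KI arrays, against 452.5, 508.3 and 515 on the WT arrays, and fell by 1.83 (SE 0.14, adjusted p = 0.0021). Junb fell by 1.45 (adjusted p = 0.0019) and Bhlhe40 by 2.83 (adjusted p = 0.0010); both are also targets of other pathways. The Id genes, the usual readout of BMP signals and named here after their values were seen, did not pass: Id1 differed by 0.97 (adjusted p = 0.14), Id2 by 0.70 (0.059), Id3 by 1.70 (0.086) and Id4, whose groups overlapped, by 0.19 (0.12). Id3 had intensities of 239, 743 and 333 on the KI arrays, against 231, 97.1 and 76.6 on the WT arrays. For Id1, Id2 and Id3 every KI array lay above every WT array and KI 2 was the brightest.

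In microglia, a set of genes depends on TGF-beta, and of 13 of these measured here 6 were higher, 0 lower and 7 did not pass. Called were 46.2%, against 26.8% of all genes, of which 11.9% were higher. Of the 10 above the median level of all probe sets 60% were called, against 40.9% of all genes at such levels. P2ry12, a nucleotide receptor, had intensities of 1692, 1531 and 1403 on the KI arrays, against 272, 451 and 449 on the WT arrays, and rose by 2.01 (SE 0.22, adjusted p = 0.0044). P2ry13, a related receptor, rose by 2.30 (SE 0.29, adjusted p = 0.0058), and Pros1, a bridge to dying cells, by 1.57 (SE 0.29, adjusted p = 0.016; 0.050 without KI 1, 0.052 without KI 3 and 0.061 with the covariate). Sall1, Siglech and Slc2a5, also on this list, lay below the median level of all probe sets and differed by -0.00, 0.14 and 0.02. Mertk is also on the list of macrophage markers, of which 6 of 8 were higher, and the share of that shift in this list was not tested.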

How the data were processed

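Biotin-labelled RNA was hybridised to Affymetrix 3' expression arrays, per the protocols in the labels. Deposited were linear intensities, 1 for each of 45101 probe sets on 6 arrays; Affymetrix Expression Console made them, per the submitters' processing notes, but the version, summarisation and normalization were not found in the labels. Array medians lay between 83.0 and 84.8, so the intensities were taken as normalized. Precision is limited by having 3 arrays a group.

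Of 45037 non-control probe sets, the platform annotation paired 34945 with 1 symbol, 932 with several and 9160 with none. Intensities were floored at 16 (5.46% lay below) and log2 transformed. The brightest single-symbol probe set stood for each of 18193 genes. KI and WT were compared with limma 3.58.1 (lmFit, eBayes with trend) in R 4.3.3, adjusted by Benjamini-Hochberg over all genes, threshold 0.05. The steps were tested on simulated arrays over 18193 genes with known answers. Changes of 0.5, 1 and 2 log2 units were given to 67, 67 and 66 genes, of which 37.3%, 68.7% and 92.4% were recovered. These were far fewer genes than the 26.8% that passed here, and the adjustment depends on that share. The recovered shares are therefore not those of the reported fit. A gene that did not pass may still differ by amounts of this size.

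The text names every member, up to 3 genes per direction of each pathway list with the smallest p among those that passed, and markers that passed. Members, lists and tests were chosen with earlier results of these data known. Alternatives were other scalings, floors, filters, variance priors, array weights, the replicate block, a covariate (the unexplained number in each description), other probe sets, leaving out each array and, added after seeing the data, leaving out WT 1 and KI 1. Whether the replicate numbers pair the samples is not known. Same-numbered arrays had deviations from their group means that correlated at -0.37, -0.26 and -0.27. With 3 arrays a group this cannot exclude that same-numbered samples were prepared together.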

Additional observations from a re-analysis of the deposited data

How the results depend on the processing

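Counts of genes past the threshold moved with scaling, replicates and covariates. Of the 42 genes, those higher in KI numbered 10 as reported, 4 under spike-in scaling, 1 under older spike-in scaling, 3 with the description number as a covariate, 6 on the second brightest probe set and 6 to 11 when 1 array was left out. Those lower numbered 4 as reported, 14 under older spike-in scaling and 3 to 4 when 1 array was left out. Other pathway genes higher numbered 18 as reported, 11 under older spike-in scaling, 30 with array weights, 4 with the covariate and 6 to 21 when 1 array was left out; those lower numbered 15, 37 under older spike-in scaling, 8 with the covariate and 9 to 14 when 1 array was left out. Of all genes 4868 passed, with 8607 under older spike-in scaling, 1671 with the covariate and 2002 to 4380 when 1 array was left out. Without WT 1 and KI 1, 11 of the 42 were higher and 4 lower.

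With the replicate block, 0 of the 42 were higher and 1 was lower. There 1 other pathway gene was higher and 6 were lower, and 344 genes passed in all. Of 6 arrays 0 correlated best with their own number, but whether the numbers pair the samples is not known.

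Under older spike-in scaling the differences of Acvr1b (-0.12), Bmpr2 (-0.065), Smad1 (-0.15), Smad2 (-0.27), Smad3 (-0.18), Tgfbr1 (-0.13), Tgif1 (-0.19), Nedd4l (-0.13), Rgmb (-0.11) and Xiap (-0.31) turned below 0, and Bmp5 was called lower (-0.50); all genes shifted by construction there, with a median of -0.515. Xiap also turned with the mean of its probe sets (-0.0521). For other changes of calls the cause was not tested. The dimmest of the 42, such as Bmp5, Bmp4 and Bmpr1b, lay near the floor, where small changes cannot be seen.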
